A study of Mus musculus with 17 samples.

Results

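The 10 genes described are Tcl1, its relatives Tcl1b1 to Tcl1b5, and the homeobox genes Obox1, Obox2, Obox3 and Obox5, taken by symbol from the 24491 gene symbols that every file lists. All 10 symbols were found. Messenger RNA was measured in 7 libraries of metaphase II oocytes, each of about 10 oocytes, from wild type CD1 mice. Rapamycin oocytes (n = 3 libraries) came from females of 48 weeks that had received intraperitoneal rapamycin, an inhibitor of the mTOR kinase, at 2 mg/kg for 40 weeks from week 8. Aged oocytes (n = 2) came from untreated females of 48 weeks, and young oocytes (n = 2) from untreated females of 4 weeks. All females were superovulated, and the dose went with age: females of 48 weeks received 10 IU of pregnant mare serum gonadotropin and then 10 IU of human chorionic gonadotrophin, and females of 4 weeks 5 IU of each, so age and hormone dose cannot be told apart. A further 10 libraries held hippocampus of adult offspring, 40 to 44 weeks old, and served here only to show where the genes are silent. The mothers were aged for 3 of these libraries, aged and treated with rapamycin for 3, and young for 4. These maternal groups are not compared here.

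The Tcl1 family encodes small proteins that bind the kinase AKT and promote its activity, and human TCL1 was first known as an oncogene of T-cell leukaemia. In the mouse, Tcl1 is a maternal transcript of the egg, and loss of the gene impairs the first cleavages of the embryo. Obox genes encode homeodomain transcription factors of rodents. Obox1, Obox2, Obox5 and Obox7 are stored in the egg as maternal transcripts, Obox3 is switched on in the early embryo, and together they take part in activation of the zygotic genome.

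Both groups of genes lie in tandem arrays of recent copies. On GRCm38, the assembly also called mm10, the Tcl1 cluster spans 75.7 kb of chromosome 12, from 105147019 to 105222737, in the order Tcl1b2, Tcl1b1, Tcl1b5, Tcl1b3, Tcl1b4 and Tcl1. The last of these is on the reverse strand and the others on the forward strand. The listed Obox genes span 370 kb of chromosome 7, from 15388851 to 15759274, in the order Obox2, Obox1, Obox3 and Obox5, with Obox3 on the reverse strand. All 10 are annotated as protein-coding.

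Near-identical copies share reads, and the sequences show where. Obox1 and Obox2 had 7 mismatches and 1 gapped position over the 454 aligned coding positions that both hold, an identity of 98.2%. The 150 coding bases with the most differences between them are printed here because a read from this stretch can be placed. Capitals mark the bases that differ from Obox2, and all are read on the forward strand, as coding bases 164 to 313 of each gene. The chromosome positions beside each name are those of the whole gene.

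Obox2 (chr7:15388851-15398545): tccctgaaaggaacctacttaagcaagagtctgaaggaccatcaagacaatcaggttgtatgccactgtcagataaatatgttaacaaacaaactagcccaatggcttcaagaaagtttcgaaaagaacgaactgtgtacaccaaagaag
Obox1 (chr7:15547257-15556846): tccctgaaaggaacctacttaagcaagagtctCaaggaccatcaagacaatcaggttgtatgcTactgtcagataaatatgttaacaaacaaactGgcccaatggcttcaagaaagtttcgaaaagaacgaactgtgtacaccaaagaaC
Obox5 (chr7:15750370-15759274): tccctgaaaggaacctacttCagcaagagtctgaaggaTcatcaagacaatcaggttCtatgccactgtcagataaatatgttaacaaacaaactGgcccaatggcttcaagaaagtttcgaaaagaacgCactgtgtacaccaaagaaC
Obox7 (chr7:14659708-14665996): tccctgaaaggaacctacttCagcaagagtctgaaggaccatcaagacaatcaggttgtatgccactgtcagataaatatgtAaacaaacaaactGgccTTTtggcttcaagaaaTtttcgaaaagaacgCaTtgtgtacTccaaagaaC

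Obox1 differed from Obox2 at 4 of these 150 bases, Obox5 at 6 and Obox7, which is no member of the list but is a maternal Obox gene next to it, at 11. Among the Tcl1 genes, Tcl1b5 is shown because its level is compared with its relatives further on, and the last 182 bases of its coding sequence are close to Tcl1b3 (96.2% identity) and less so to Tcl1b1 (74.2%), while the first 181 bases are 76.5% identical to Tcl1b3 and 81.8% to Tcl1b1. The 120 coding bases in which Tcl1b5 is closest to Tcl1b3 follow, on the forward strand, with capitals where a base differs from Tcl1b5. Chromosome positions are again those of the whole gene.

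Tcl1b5 (chr12:105176344-105181145): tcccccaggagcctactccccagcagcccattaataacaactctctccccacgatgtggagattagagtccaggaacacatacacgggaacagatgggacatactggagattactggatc
Tcl1b3 (chr12:105191045-105195399): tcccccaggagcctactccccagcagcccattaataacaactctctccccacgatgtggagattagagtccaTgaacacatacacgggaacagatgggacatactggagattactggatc
Tcl1b1 (chr12:105159704-105166625): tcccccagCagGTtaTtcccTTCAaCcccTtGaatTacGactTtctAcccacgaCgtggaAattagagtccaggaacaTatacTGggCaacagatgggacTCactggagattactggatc

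Tcl1b3 had 1 mismatch with Tcl1b5 in this stretch and Tcl1b1 had 23. To express how far counts could be mixed, each reference transcript was broken into all its runs of 75 bases and each run was looked for in all other genes' transcripts. Of these runs, 52.9% were unique to Obox1 and 51.1% to Obox2, and 677 runs were common to the pair. At 150 bases, the read length of the study, the unique share was 68.6% for Obox1 and 67.3% for Obox2. For Obox5 it was 96.5% at 75 bases, for Obox3 73.3%, with the remainder shared with Obox3 pseudogenes. In the Tcl1 cluster it was 100% for Tcl1, 96.2% for Tcl1b1, 81.5% for Tcl1b2, 79.4% for Tcl1b3, 99.7% for Tcl1b4 and 91.2% for Tcl1b5, and at 150 bases it was at least 96.2% for each of the 6. The pair with the most runs in common was Tcl1b2 and Tcl1b3, with 144, against 86 for Tcl1b3 and Tcl1b5. Reads without a unique position made up 10% to 15.9% of an oocyte library and are not in the gene counts. The values of Obox1 and Obox2 are therefore uncertain as single genes, and their sum is given beside them. In GENCODE M21 the Obox1 model extends from 15388948 to 15556866 and so overlaps the Obox2 model. Annotation and strand setting of the authors' counting were not given in the sources used here.

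Upstream of the start site, the families differ in their promoters. RefSeq windows of 300 bases around the start (GRCm38.p6), mostly upstream of it, were found for all 10 members. The last 90 bases before the start are printed for Obox1 and Obox5, 2 of the Obox genes with a TATA box there, and for the pair Tcl1b5 and Tcl1b1, whose levels are compared further on. All 4 are read on the forward strand, and capitals mark TATATAA.

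Obox1 (chr7:15547167-15547256): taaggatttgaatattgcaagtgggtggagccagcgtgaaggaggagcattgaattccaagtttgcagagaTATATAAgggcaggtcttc
Obox5 (chr7:15750280-15750369): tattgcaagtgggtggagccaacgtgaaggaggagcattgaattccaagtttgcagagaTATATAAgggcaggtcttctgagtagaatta
Tcl1b5 (chr12:105176254-105176343): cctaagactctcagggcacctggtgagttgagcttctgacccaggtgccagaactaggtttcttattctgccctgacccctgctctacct
Tcl1b1 (chr12:105159614-105159703): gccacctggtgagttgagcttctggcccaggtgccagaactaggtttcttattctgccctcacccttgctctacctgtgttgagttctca

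A TATA box, searched as TATATAA or TATAAAA on both strands, was found in the windows of 3 members, Obox1, Obox3 and Obox5, and in that of Obox7, against 7.98% of all 32851 promoter windows. The letters TATATAA began 19 bases before the start in Obox1, 31 before it in Obox5 and 30 before it in Obox3. The annotated start of Obox2 lies further upstream in a sequence shared with Obox1, with an identical run of 203 bases that ends 50 bases after the start of Obox2 and 48 before that of Obox1, so its window stops before the corresponding stretch. None of the 10 members held TAATTG or TAATTA, the core letters bound by the oocyte homeodomain factor NOBOX, which 12.4% of all windows hold. TAATCC, a core bound by OBOX-type homeodomains, was found in Obox3 alone among the members and in 7.06% of all windows. The E-box CANNTG was present in 9 of the 10 members and in 72.3% of all windows. The promoters of Tcl1b2 and Tcl1b4 shared an identical run of 167 bases and those of Tcl1b5 and Tcl1b1 one of 52.

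Before the values, 1 library has to be set apart. The library rapamycin 1 differed from the other 6, with correlations of log2 CPM across genes of 0.728 to 0.785 with each of them, against 0.867 to 0.975 among the rest. CPM are counts relative to a library's total after TMM scaling, and oocyte libraries held 3912163 to 8334873 gene counts. All 20 oocyte markers were detected in all 7 libraries. Their summed level was 21566 CPM in rapamycin 1 and 40351 to 48249 CPM in the other 6. In rapamycin 1, 15 of the 20 markers were below all other libraries and 2, Dazl and Ccnb1, above. Summed markers of cumulus and granulosa cells, which surround the egg, came to 223 CPM in rapamycin 1 and 43.0 to 97.4 CPM in the others, where 3 to 10 of the 16 were at 0, against 2 in rapamycin 1. The follicle stimulating hormone receptor Fshr was at 0 in rapamycin 1, as in aged 2, rapamycin 2, rapamycin 3 and young 2. Rapamycin 1 was highest for Inha (77.2 CPM against 0 to 4.05), Hsd3b1 (73.7 against 0.698 to 6.54) and Gja1 (31.5 against 0 to 2.4). It was lowest for Cyp19a1, at 11.0 CPM against 24.6 to 80.4 CPM. Blood and immune markers summed to 8.06 to 15.3 CPM over all 7 libraries. Their part in the results was not tested, and each comparison is therefore given with and without rapamycin 1. The submitters speak of 3 separate experiments but not of which library or which female belongs to which, so a p-value here reflects library-to-library spread and may be technical in part.

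The 6 Tcl1 genes together held 3.26%, 1.5% and 1.33% of gene counts in rapamycin oocytes, 1.08% and 1.36% in aged oocytes and 1.46% and 1.52% in young oocytes. Tcl1 was among the most abundant transcripts of the egg and ranked between 4 and 7 among all genes by CPM, which is not corrected for transcript length, in every library. The 4 listed Obox genes held 0.507%, 0.687% and 0.649% of counts in rapamycin oocytes, 0.554% and 0.736% in aged oocytes and 1.02% and 0.754% in young oocytes. In libraries of whole oocytes, fewer cells and less RNA per cell cannot be told apart, and CPM gives only the relative level within a library.

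Per kilobase of reference transcript, the order of median levels over the 7 libraries was Tcl1 (6889 CPM per kb), Tcl1b1 (1667), Obox2 (1445), Obox5 (1438), Obox1 (1065), Tcl1b2 (873), Tcl1b3 (645), Tcl1b4 (628), Tcl1b5 (279) and Obox3 (0). Tcl1 stood above Tcl1b1 within each of the 7 libraries. Tcl1b1, Obox2 and Obox5 did not keep their order: Tcl1b1 was above Obox2 in 4 of 7 libraries and Obox2 above Obox5 in 5. Obox5 exceeded Obox1 in all 7. Between Tcl1b4 and Tcl1b5 the ranges over the libraries did not overlap, whereas those of every other pair of neighbours from Tcl1 down to Tcl1b4 did. For Tcl1 and Tcl1b1 this rested on rapamycin 1, without which Tcl1 was at 5406 to 7838 CPM per kb and Tcl1b1 at 1329 to 1810 CPM per kb. Obox7 followed Tcl1b5 at 242 CPM per kb.

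Tcl1, the founding member of the family, stood at 26457, 9630 and 8304 CPM in rapamycin oocytes, 7557 and 9120 CPM in aged oocytes, and 10215 and 10958 CPM in young oocytes. Rapamycin 1 was 2.82-fold above the median of the other 6 libraries, and the aged libraries lay below both young ones. Tcl1b1, the next most abundant AKT-binding relative, had 5853, 1883 and 1700 CPM in rapamycin oocytes, 1854 and 1734 CPM in aged oocytes and 1613 and 1383 CPM in young oocytes. Its rapamycin and aged libraries were all above the young ones, with rapamycin 1 far above the rest. Tcl1b2 had 2034, 859 and 784 CPM in rapamycin oocytes, 577 and 881 CPM in aged oocytes and 1040 and 969 CPM in young oocytes, so that its aged libraries were below the young ones, as for Tcl1.

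Tcl1b3, the copy closest to Tcl1b5, had 2539, 810 and 568 CPM in rapamycin oocytes, 371 and 744 CPM in aged oocytes and 674 and 653 CPM in young oocytes, with overlap between the groups. Tcl1b4 had 1181, 647 and 559 CPM in rapamycin oocytes, 571 and 695 CPM in aged oocytes and 691 and 635 CPM in young oocytes, which overlapped likewise. Tcl1b5 was the least abundant of the cluster except in aged 1, where Tcl1b3 was lower, and its groups did not all overlap. It had 404, 374 and 295 CPM in rapamycin oocytes, 432 and 285 CPM in aged oocytes, and 135 and 127 CPM in young oocytes. All 5 libraries of females of 48 weeks, treated or not, were above both young libraries. Rapamycin 1 lay within the range of the others. Separation of this kind was common: 29.6% of tested genes were higher in aged than in young oocytes without overlap. In rapamycin against young oocytes 15.5% were higher. The share for all 5 libraries together was not counted.

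**Figure D1:**
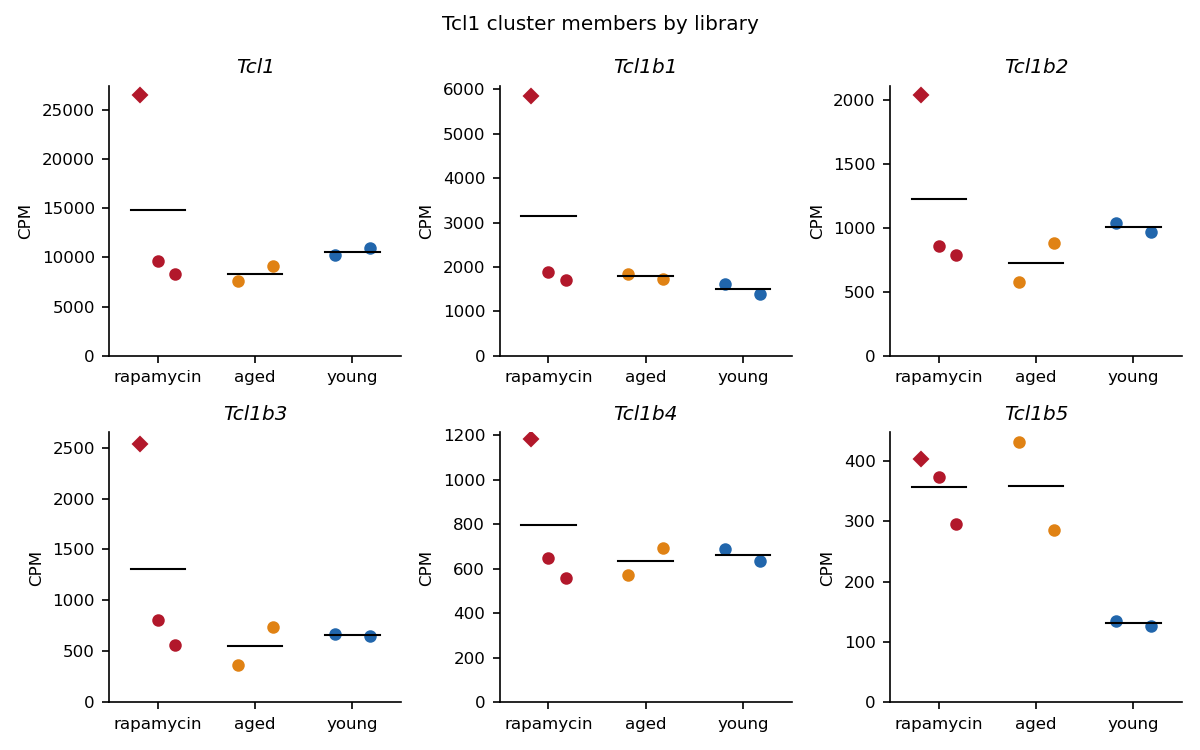
Level of each Tcl1 cluster gene in CPM (y axis, linear, from 0) in every oocyte library, by group (x axis: rapamycin, aged, young). Points are libraries, the diamond is rapamycin 1 and the black line is the group mean; the diamond stands above all other points in 5 panels, while in the Tcl1b5 panel the 5 libraries of 48-week females, at 285 to 432 CPM, stand above the young ones at 127 and 135 CPM.

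Separation from young oocytes was common: without overlap, 31.7% of tested genes were lower in aged oocytes and 17.8% in rapamycin oocytes. Obox2 was the Obox member whose aged and rapamycin libraries separated from the young ones. It had 1926, 1425 and 2109 CPM in rapamycin oocytes, 1984 and 2609 CPM in aged oocytes, and 4847 and 3616 CPM in young oocytes, so that all 5 libraries of 48-week females were below both young ones. Its near-copy Obox1 had 1274, 2191 and 1487 CPM in rapamycin oocytes, 1610 and 2061 CPM in aged oocytes and 2063 and 1565 CPM in young oocytes, and the groups overlapped. In rapamycin 1 it was below all other libraries. Obox5, a maternal homeodomain gene with few shared runs, had 2784, 2872 and 2354 CPM in rapamycin oocytes, 2247 and 2634 CPM in aged oocytes and 3133 and 2128 CPM in young oocytes, again with overlap.

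The summed level of Obox1 and Obox2, which does not depend on how reads were divided between them but still lacks the discarded ones, was 3201, 3616 and 3596 CPM in rapamycin oocytes, 3594 and 4670 CPM in aged oocytes and 6910 and 5181 CPM in young oocytes. The young libraries were above the others in the sum as well. Obox3, the gene of the early embryo, had 0 counts in all rapamycin, aged and young libraries except young 2, which had 2 counts, and 3 counts would have been 0.349 to 0.809 CPM. It therefore did not enter the tests, and 9 of the 10 members did. The other symbols of these families in the files were Obox6, with 0 counts outside young 2 and 1 count there, and Obox7, with 412, 363 and 285 CPM in rapamycin oocytes, 303 and 318 CPM in aged oocytes and 516 and 357 CPM in young oocytes.

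**Figure D2:**
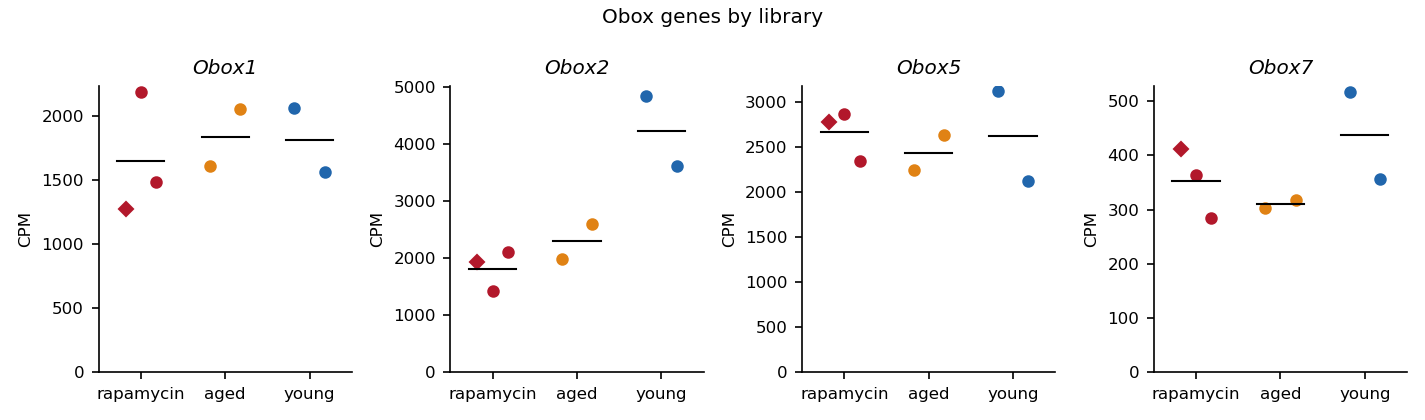
Level of Obox1, Obox2, Obox5 and Obox7 in CPM (y axis, linear, from 0) in every oocyte library, by group (x axis: rapamycin, aged, young). Points are libraries, the diamond is rapamycin 1 and the black line is the group mean; only in the Obox2 panel do both young libraries, at 3616 and 4847 CPM, stand above all 5 others, at 1425 to 2609 CPM.

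Rapamycin oocytes against aged oocytes asked whether the drug moved these genes at 48 weeks. None of the 9 tested members passed the threshold of 0.05 (edgeR quasi-likelihood test, Benjamini-Hochberg adjustment over 10083 genes), where 0% of all genes were called and 603 had an unadjusted p under 0.05. The lowest adjusted p among members was 0.73 in edgeR and 0.718 in DESeq2, which called 0.0855% of genes, and no member had an unadjusted p under 0.05. Nor did any member separate the groups, where 11.7% of tested genes were higher and 13.9% lower without overlap. The estimates were above 0 for 5 of the 6 Tcl1 genes, Tcl1b5 being the exception at -0.0043 on the log2 scale. Tcl1 averaged 14797 ± 10120 CPM in rapamycin oocytes (SD, n = 3) and 8339 ± 1105 CPM in aged oocytes (SD, n = 2). That is 0.83 ± 0.52 (SE) on the log2 scale. The fold changes were 0.81 ± 0.56 for Tcl1b1, 0.75 ± 0.48 for Tcl1b2, 1.23 ± 0.66 for Tcl1b3 and 0.33 ± 0.39 for Tcl1b4 on the log2 scale.

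These estimates rested on rapamycin 1. Without it, the log2 fold change was 0.12 ± 0.17 for Tcl1, 0.02 ± 0.18 for Tcl1b1, 0.19 ± 0.24 for Tcl1b2, 0.32 ± 0.32 for Tcl1b3 and -0.05 ± 0.21 for Tcl1b4, and no member passed, with 0.0587% of 10220 genes called. Over the 6 tested Tcl1 genes the median was 0.78 with all libraries and 0.07 without rapamycin 1, beside 0.01 and 0.02 over all genes. Tcl1b5 averaged 357 ± 56.1 CPM in rapamycin oocytes (SD, n = 3) and 358 ± 103 CPM in aged oocytes (SD, n = 2), with a 95% interval of the log2 difference from -0.66 to 0.65. Among the Obox genes the log2 fold change was -0.34 ± 0.32 for Obox2, -0.15 ± 0.35 for Obox1 and 0.13 ± 0.30 for Obox5. Their 95% intervals, -0.96 to 0.29, -0.83 to 0.52 and -0.47 to 0.73 in the same order, all held 0. Without rapamycin 1 the log2 fold change was -0.36 ± 0.25 for Obox2, 0.02 ± 0.25 for Obox1 and 0.12 ± 0.23 for Obox5. For Tcl1b5 it was then -0.08 ± 0.25.

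Aged oocytes against young oocytes addressed maternal age. With all 7 libraries, none of the 9 tested members passed, where 0.268% of the genes were called, and 2 members, Tcl1b5 and Obox2, had an unadjusted p under 0.05, as had 1162 of all 10083 genes. DESeq2 called 0 members as well, with a lowest adjusted p of 0.0666 for Tcl1b5 and 2.13% of genes called. Tcl1b5 averaged 358 ± 103 CPM in aged oocytes and 131 ± 5.17 CPM in young oocytes (SD, n = 2 each), or 1.45 ± 0.37 on the log2 scale (adjusted p = 0.251, edgeR). Obox2 averaged 2296 ± 442 CPM in aged oocytes and 4231 ± 870 CPM in young oocytes (SD, n = 2 each), or -0.88 ± 0.36 on the log2 scale (adjusted p = 0.408, edgeR). The remaining fold changes lay between -0.46 ± 0.52 for Tcl1b2 and 0.26 ± 0.59 for Tcl1b1, and Tcl1 had -0.34 ± 0.55.

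Leaving out rapamycin 1 changed these calls, although that library is in neither group. The groups share 1 estimate of spread, and the biological coefficient of variation was 49.5% with it and 28.1% without it. Tcl1b5 then rose in aged oocytes (log2 fold change 1.44 ± 0.25, edgeR adjusted p = 0.0116) and Obox2 fell (-0.89 ± 0.25, edgeR adjusted p = 0.0498, close to the threshold). Under the same setting 11.4% of all genes were called, and the 2 of 9 members are to be read against that share. Groups did not overlap for 5 members, of which Tcl1b1 and Tcl1b5 were higher in aged oocytes and Tcl1, Tcl1b2 and Obox2 lower, where 29.6% of all tested genes were higher and 31.7% lower without overlap.

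Rapamycin oocytes against young oocytes compared treated females of 48 weeks with those of 4 weeks. This contrast shares its young libraries with the one before and its rapamycin libraries with the first, so the 3 are not independent. None of the 9 tested members passed, with 0.426% of genes called, and Tcl1b5 and Obox2 had an unadjusted p under 0.05, as had 898 of all genes. Tcl1b5 averaged 357 ± 56.1 CPM in rapamycin oocytes (SD, n = 3) and 131 ± 5.17 CPM in young oocytes (SD, n = 2), or 1.45 ± 0.35 on the log2 scale (adjusted p = 0.231, edgeR). Obox2 averaged 1820 ± 354 CPM in rapamycin oocytes (SD, n = 3) and 4231 ± 870 CPM in young oocytes (SD, n = 2), or -1.22 ± 0.32 on the log2 scale (adjusted p = 0.265, edgeR). Tcl1b1 had 1.07 ± 0.56, and 0.27 ± 0.18 without rapamycin 1.

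Without rapamycin 1, Tcl1b5 rose in rapamycin oocytes relative to young ones (log2 fold change 1.36 ± 0.25, edgeR adjusted p = 0.0228) and Obox2 fell (-1.25 ± 0.25, edgeR adjusted p = 0.0301), where 2.97% of all genes were called. DESeq2 with all libraries called Tcl1b5 (adjusted p = 0.0314) and not Obox2 (adjusted p = 0.135), with 1.9% of genes called. Libraries did not overlap for Tcl1b1 and Tcl1b5, both higher in rapamycin oocytes, and for Obox2, which was lower, where 15.5% of all genes were higher and 17.8% lower in this sense. For Tcl1 and Tcl1b2, leaving out rapamycin 1 turned the sign of the fold change, to -0.23 ± 0.17 and -0.28 ± 0.23, against 0.48 ± 0.51 and 0.29 ± 0.47 with all libraries.

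**Figure D3:**
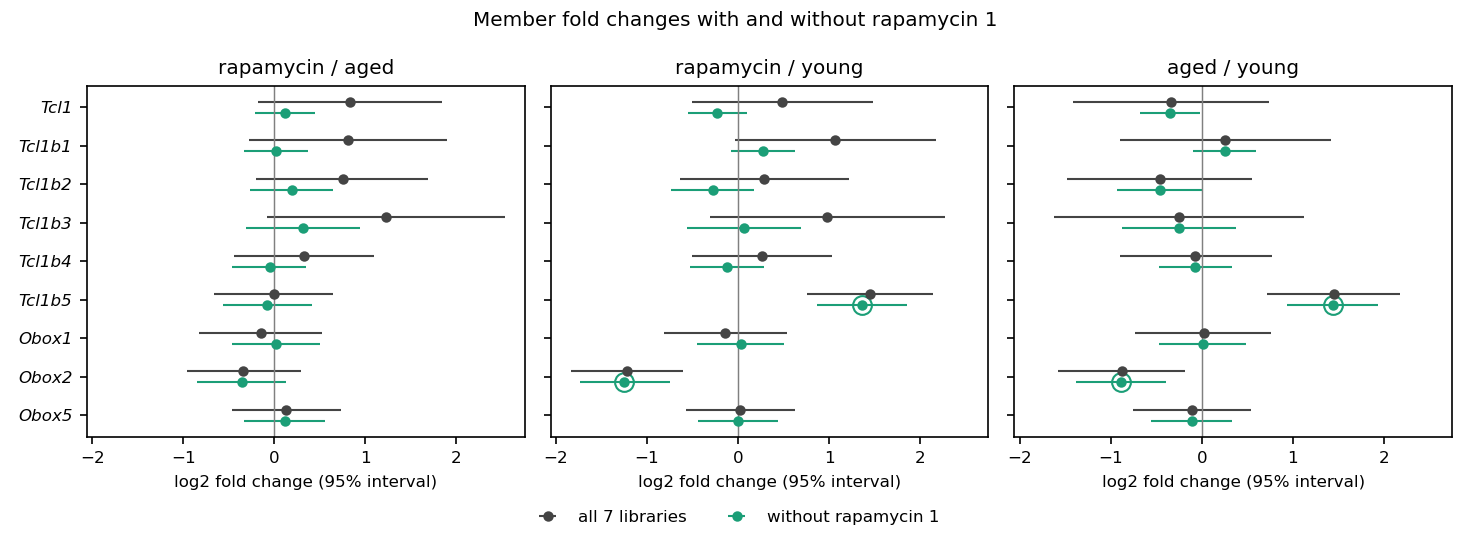
Log2 fold change of the 9 tested members (x axis, first-named group over the second), in 3 panels for rapamycin over aged, rapamycin over young and aged over young oocytes. Bars are approximate 95% intervals, made from the edgeR estimate and its SE by a normal approximation. They are narrower than the F-test implies, so a bar that leaves out 0 need not have a p under 0.05. Grey points use all 7 libraries and green points leave out rapamycin 1; a ring marks an adjusted p under 0.05, which Tcl1b5 and Obox2 have in the 2 panels against young oocytes, and then only without rapamycin 1.

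Ratios within a library compare members without any scaling of library size. Tcl1b5 made up 1.05%, 2.63% and 2.41% of the Tcl1 cluster's counts in rapamycin oocytes, 3.80% and 2.12% in aged oocytes, and 0.937% and 0.865% in young oocytes. The groups of 48 weeks stayed above the young libraries, rapamycin 1 only just. Relative to Tcl1b4, which shares no run of 75 bases with it, Tcl1b5 had 0.342, 0.577 and 0.528 counts per count in rapamycin oocytes, 0.756 and 0.410 in aged oocytes and 0.195 and 0.201 in young oocytes. The summed level of Tcl1b3 and Tcl1b5, which does not depend on how reads were divided between that pair, was 2942, 1184 and 863 CPM in rapamycin oocytes, 803 and 1029 CPM in aged oocytes and 809 and 780 CPM in young oocytes. In this sum, aged and young oocytes overlapped. Tcl1b3 was its larger part except in aged 1, which had 0.86 counts of Tcl1b3 per count of Tcl1b5.

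Tcl1 itself made up 68.8%, 67.8% and 68.0% of its cluster's counts in rapamycin oocytes, 66.5% and 67.8% in aged oocytes and 71.1% and 74.4% in young oocytes, so both young libraries were above the others. Tcl1b1 went the other way, with 15.2%, 13.3% and 13.9% in rapamycin oocytes, 16.3% and 12.9% in aged oocytes and 11.2% and 9.39% in young oocytes. Rapamycin 1, in which the cluster's summed level was 38467 CPM against 11362 to 14725 CPM elsewhere, lay within the range of the others for both shares.

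Obox2 made up 60.2%, 39.4% and 58.6% of the counts of Obox1 and Obox2 in rapamycin oocytes, 55.2% and 55.9% in aged oocytes, and 70.1% and 69.8% in young oocytes. Rapamycin 2 was the lowest of the 7 libraries and both young libraries were the highest. Relative to Obox5, with which it shares 8 runs of 75 bases, Obox2 had 0.692, 0.496 and 0.896 counts per count in rapamycin oocytes, 0.883 and 0.991 in aged oocytes and 1.55 and 1.70 in young oocytes. Both young libraries were above the 5 others in this ratio of counts.

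**Figure D4:**
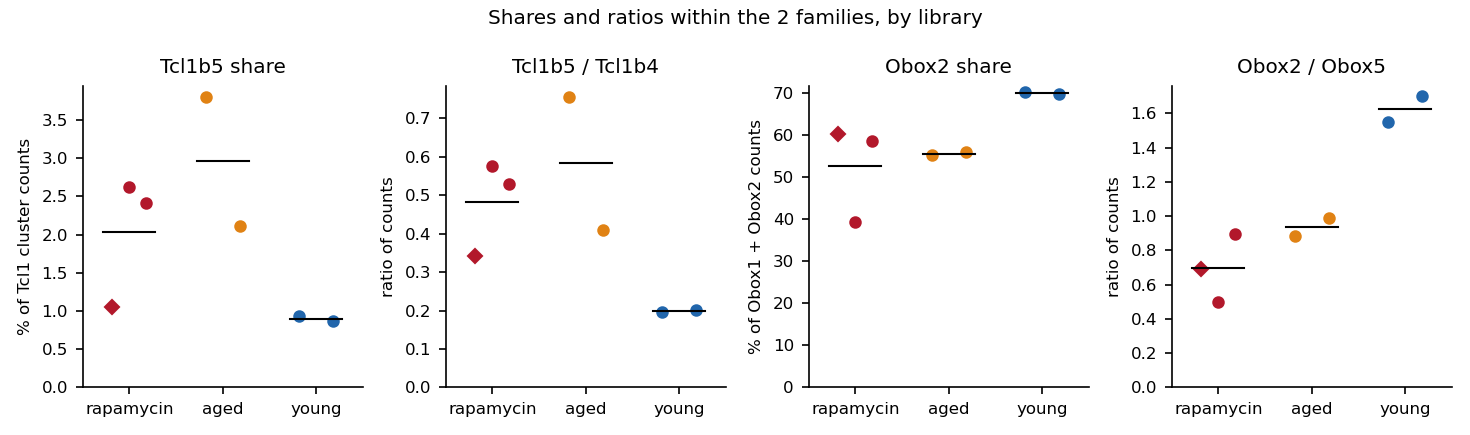
Shares and count ratios within the families (y axes, linear, from 0) in every oocyte library, by group (x axes: rapamycin, aged, young). The panels give Tcl1b5 as a percentage of Tcl1 cluster counts, Tcl1b5 per Tcl1b4, Obox2 as a percentage of Obox1 plus Obox2, and Obox2 per Obox5; the diamond is rapamycin 1, lines are group means, and in the last panel the young libraries stand at 1.55 and 1.70 and all others below 1.

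Most Tcl1 genes were high in rapamycin 1, while most oocyte markers of the same library were low. Against the median of the other 6 libraries, its level was 3.83-fold for Tcl1b3, 3.41-fold for Tcl1b1, 2.82-fold for Tcl1, 2.34-fold for Tcl1b2 and 1.84-fold for Tcl1b4, and each of these was above all other libraries. Tcl1b5, at 1.39-fold, and the Obox members Obox5, at 1.12-fold, and Obox2, at 0.817-fold, were within their range. Obox1, at 0.694-fold, was below it. Of the 20 oocyte markers, 15 were below all other libraries, among them the growth factor Gdf9 at 0.0422-fold, the linker histone H1foo at 0.0464-fold and the meiotic kinase Mos at 0.00878-fold. The other 5 lay above the median, with folds in the range of the Tcl1 genes for some: the RNA helicase Ddx4 at 2.71-fold, the cyclin Ccnb1 at 1.97-fold, Dppa3 at 1.8-fold, Dazl at 1.52-fold and Btg4 at 1.16-fold. Of these, Ccnb1 and Dazl were above all other libraries. Of all 10083 tested genes, 29.1% were above and 36.4% below the other 6 libraries in rapamycin 1, so standing above is common there. In each of the other libraries the share above the rest was 6.73% to 21.6%.

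**Figure D5:**
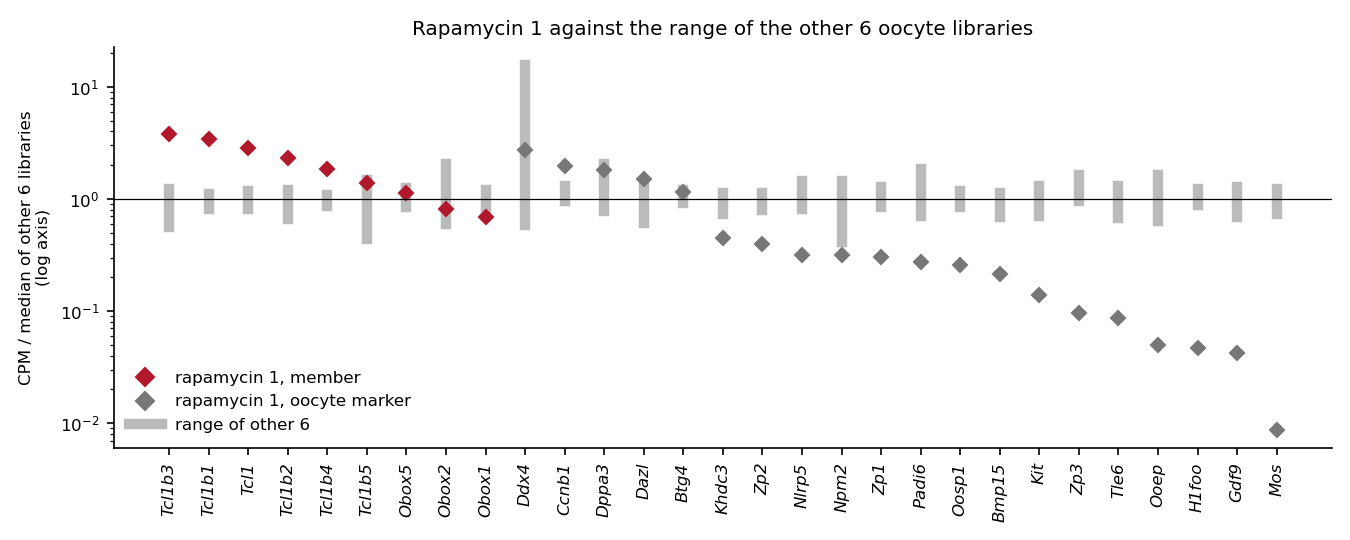
Level in the library rapamycin 1 as a multiple of the median of the other 6 oocyte libraries (y axis, log scale) for the 9 detected members and the 20 oocyte markers (x axis). Diamonds are rapamycin 1 (red for members, grey for markers) and bars the range of the other 6; 5 Tcl1 genes lie above their bars, at 1.84 to 3.83, while 15 markers lie below theirs, down to 0.00878 for Mos, and Ccnb1 and Dazl above.

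Apart from Obox7, the protein-coding genes around the clusters were low or silent. Neighbours were taken from the protein-coding genes of GENCODE M21 whose symbols were counted, so other annotated genes were passed over. The 3 nearest of these genes on each side of the Tcl1 cluster were low. On the side of Tcl1b2, Glrx5, a glutaredoxin of mitochondrial iron-sulfur cluster assembly, was at 3.76 to 16.6 CPM. Syne3 was at 1.62 to 5.62 CPM and Clmn at 0.218 to 2.70 CPM. On the side of Tcl1, Tunar, D430019H16Rik and Bdkrb2 were at 0 to 0.270 CPM. In rapamycin 1, Glrx5 was at 3.76 CPM, the lowest of the 7 libraries. Around the listed Obox genes, Obox7 was the only neighbour above 0.218 CPM. Crx, a photoreceptor homeobox gene, and Crxos, the next genes beyond Obox6, had 0 counts.

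In the hippocampus libraries of 16434398 to 20220617 gene counts, 8 of the 10 members had 0 counts in all 10 libraries, which allows a level of up to 0.0165 CPM over the pooled counts, a limit that covers counting error only. Tcl1b2 had 1 count in 1 library, and Obox5 had 11 counts over 6 libraries, with at most 3 in any. Obox6, nearly silent in oocytes, had 47 counts over 9 of the 10 libraries, with at most 14 in any, and Obox7 had 0. The tissues differed in library protocol, so no test was made between them, and 10 hippocampus markers summed to 14676 to 22081 CPM in hippocampus and 44.6 to 70.8 CPM in oocytes.

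Genes of the pathway that Tcl1 acts on were read from a list of 30 AKT signalling genes, of which 26 were tested. With all libraries, 0 were called in any of the 3 comparisons (edgeR), and the list's median log2 fold change was 0.12 for rapamycin against aged, 0.03 for rapamycin against young and 0.03 for aged against young oocytes, beside 0.01, 0.02 and -0.01 over all genes. Pik3cd, a catalytic subunit of phosphoinositide 3-kinase, had 766, 502 and 498 CPM in rapamycin oocytes, 685 and 515 CPM in aged oocytes and 235 and 118 CPM in young oocytes. Its log2 fold change was 1.77 ± 0.46 in aged against young oocytes (edgeR adjusted p = 0.251) and 1.74 ± 0.43 in rapamycin against young oocytes (adjusted p = 0.242). Without rapamycin 1, edgeR called it in both, with adjusted p = 0.0123 and 0.0336. In aged against young oocytes it then also called Cdkn1b, a cell cycle inhibitor, which was lower at 3.77 and 2.92 CPM in aged oocytes against 13.3 and 11.4 CPM in young oocytes, and Foxo3, a transcription factor that AKT keeps out of the nucleus, which was higher, with a log2 fold change of 1.67 ± 0.45. That is 3 of 26, where 11.4% of all genes were called.

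Of 15 transcription regulators of the oocyte, 11 were tested and 0 called in any comparison with all libraries, with medians of 0.09 for rapamycin against aged, 0.21 for rapamycin against young and 0.47 for aged against young oocytes. Nobox, whose product activates oocyte genes, had 52.4, 81.7 and 61.0 CPM in rapamycin oocytes, 38.5 and 58.0 CPM in aged oocytes and 71.7 and 114 CPM in young oocytes. Its log2 fold change in aged against young oocytes was -0.94 ± 0.45 (edgeR adjusted p = 0.456). Yy2, a zinc finger relative of Yy1, had 18.3, 12.8 and 17.6 CPM in rapamycin oocytes, 5.39 and 6.97 CPM in aged oocytes and 31.6 and 26.4 CPM in young oocytes. Without rapamycin 1 it fell in aged against young oocytes (log2 fold change -2.22 ± 0.38, edgeR adjusted p = 0.0101), and with all libraries it did not pass (adjusted p = 0.159). In that fit without rapamycin 1, 2 of 12 tested genes of the list were called, Yy2 and, in the other direction, Foxo3 (1.67 ± 0.45, edgeR adjusted p = 0.0429), where 11.4% of all genes were called.

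Among 34 regulators and early targets of zygotic genome activation, the process in which Obox factors act, 31 were in the files and 13 were tested, with 0 called in any comparison with all libraries. The list's median log2 fold change was 0.19 for rapamycin against aged, -0.15 for rapamycin against young and -0.37 for aged against young oocytes. Klf17, a zinc finger factor stored in the egg, had 4993, 1313 and 1456 CPM in rapamycin oocytes, 2601 and 2433 CPM in aged oocytes and 1066 and 1156 CPM in young oocytes. Without rapamycin 1, edgeR called 4 of the 13 in aged against young oocytes, where 11.4% of all genes were called. Klf17 (1.17 ± 0.17, adjusted p = 0.00588) and the endoderm factor Gata6 (2.94 ± 0.44, adjusted p = 0.00627) were higher in that fit. Dppa2, a chromatin-binding activator of early embryonic genes (-1.60 ± 0.31, adjusted p = 0.0165), and Klf4 (-4.65 ± 0.97, adjusted p = 0.02) were lower. Klf4 was at 0 and 0.449 CPM in aged oocytes and at 5.45 and 7.68 CPM in young oocytes. In the aged libraries 3 counts would have been 0.809 and 0.674 CPM, so the size of its fold change is uncertain. In rapamycin against young oocytes the same setting called 1 of the 13, Gata6 (2.64 ± 0.44, edgeR adjusted p = 0.0144), where 2.97% of all genes were called.

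The genes whose profile over the 7 libraries was most like that of the summed Tcl1 members were Pik3r3, a regulatory subunit of phosphoinositide 3-kinase, Eif4e, the cap-binding initiation factor, Ica1, 2310061I04Rik and Ankra2. Likeness was the root mean square difference of log2 CPM profiles, each centred on its own mean, which was 0.124 to 0.147 for these 5 and had a median of 0.716 over 3699 genes. Pik3r3 had 167, 48.1 and 43.5 CPM in rapamycin oocytes, 42.6 and 48.5 CPM in aged oocytes and 46.4 and 50.4 CPM in young oocytes, and so shared the height of rapamycin 1. Over the 6 libraries without it, 5 other genes came first, Ankle2, Brd7, Dip2b, Mllt4 and Asf1a. For the summed Obox members the genes were Bbs9, Hbp1, Mier3, Trmt11 and Naa30 over 7 libraries, at 0.09 to 0.13 against a median of 0.555, and Lmbr1, Gnpda2, Gpm6a, Ndufa10 and Ppm1h over 6. Bbs9, a gene of the ciliary BBSome complex, had 64.0, 68.6 and 57.3 CPM in rapamycin oocytes, 65.8 and 78.9 CPM in aged oocytes and 106 and 88.1 CPM in young oocytes.

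Among the members, Tcl1 and Tcl1b2 had the closest profiles of the pairs involving Tcl1, with a difference of 0.15 over 7 libraries and 0.13 over 6, where Tcl1 and Tcl1b4 came to 0.13 as well. Tcl1 and Tcl1b5 differed by 0.82 and 0.83, and Tcl1 and Obox2 by 0.82 and 0.50. The distance between Tcl1 and Tcl1b5 was thus as large without rapamycin 1.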

How the data were processed

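RNA sequencing libraries were made by the submitters from about 10 oocytes each by template switching and tagmentation, with reads of 150 bases, per the labels' protocols. The deposited files hold raw read counts per gene, 1 file a library. The submitters' processing notes name STAR, HTSeq and mm10, with versions, annotation and strand setting not given in the sources used here. The 5 summary rows that name no gene were left out of library sizes (in oocytes, ambiguous reads were 1.26% to 1.48%).

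Counts of all 7 oocyte libraries were fitted with 3 groups in edgeR 4.0.16 (R 4.3.3, limma 3.58.1): filterByExpr, TMM scaling, quasi-likelihood F-test, two-sided, Benjamini-Hochberg adjustment over all 10083 genes tested, threshold 0.05. The code was tested on counts simulated with the spread of that fit, with changed genes drawn from all genes tested. Of 50 genes changed 2-fold, 0 were called in each comparison. Of 50 changed 4-fold, 1 or 2 were called. A member that did not pass with all libraries may thus still differ by such a fold. The 95% intervals were made from the estimate and its SE by a normal approximation and are narrower than the F-test implies. Tcl1 in aged against young oocytes without rapamycin 1 thus had -0.68 to -0.02, with an unadjusted edgeR p of 0.0656. CPM uses the effective library sizes of that fit. Profiles used log2(CPM + 0.5). Alternatives were RLE size factors, library totals, no filter, DESeq2 1.42.0, only the 2 groups compared, a replicate block, leaving out each library, and, added after the data were seen, leaving out Rn45s. No replicate pair agreed within sampling noise (chi-square per degree of freedom at least 16.3).

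All members are described, with up to 4 genes of smallest p per list and 5 per likeness profile. Not all of these are printed. The members and the lists were chosen with earlier results of these data known. Coding sequences and shared runs came from GENCODE M21 transcripts paired with RefSeq, and promoters from RefSeq. Sequences were handled in Python 3.11.15 with Biopython 1.88, and figures drawn with matplotlib 3.10.9.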

Additional observations from a re-analysis of the deposited data

How the results depend on the processing

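The count of genes called depended on the setting, while the fold changes of Tcl1b5 and Obox2 against young oocytes kept their direction in every alternative. For aged against young oocytes, 27 genes were called with all libraries in edgeR, 167 without a filter, 240 by DESeq2, 1177 with only the 2 groups and 1 with the replicate block. For rapamycin against aged oocytes, 0 were called, against 11 without a filter and 11 by DESeq2. For rapamycin against young oocytes, 43 were called, against 179 without a filter, 220 by DESeq2, 14 with only the 2 groups and 0 with the replicate block. With only the 2 groups, 2 of the 9 tested members were called in aged against young oocytes (Tcl1b5 and Obox2). Of all 9409 genes tested in that setting, 12.5% were called. DESeq2 called 1 member, Tcl1b5, in rapamycin against young oocytes, where 1.9% of genes were called. Leaving out 1 library at a time gave 0 to 1168, 0 to 6 and 0 to 304 genes in the 3 comparisons, in that order, and 0 to 2, 0 and 0 to 2 members, the highest always without rapamycin 1. Correlations of deviations from the group mean between same-numbered libraries were -0.0924 to 0.004. In a group of 2 libraries these deviations mirror each other, so the check cannot decide whether the replicate numbers pair the libraries. What the numbers stand for is not stated, and the block result is given without a choice between the 2 fits.

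Of 378 alternative member fold changes, 341 kept direction and side of the threshold, 7 passed it newly and 30 changed sign, all from main values of at most 0.48 in size. The sign changes outside leave-one-out were Obox1 in aged against young oocytes (-0.04 with library totals, -0.02 with the block), Obox5 in rapamycin against young oocytes (-0.02 with library totals) and Tcl1b5 in rapamycin against aged oocytes (0.03 with RLE, 0.02 with library totals, 0.02 without a filter, 0.01 by DESeq2, 0.04 with 2 groups, 0.14 with the block). With 1 library left out, log2 fold changes in aged against young oocytes ran from -0.83 to 0.17 for Tcl1b3, -0.21 to 0.08 for Tcl1b4, -0.17 to 0.23 for Obox1 and -0.33 to 0.20 for Obox5. In rapamycin against aged oocytes they ran from -0.05 to 0.56 for Tcl1b4, -0.30 to 0.30 for Tcl1b5, -0.41 to 0.02 for Obox1 and -0.0038 to 0.24 for Obox5. In rapamycin against young oocytes they ran from -0.23 to 0.79 for Tcl1, -0.28 to 0.54 for Tcl1b2, -0.12 to 0.48 for Tcl1b4, -0.39 to 0.09 for Obox1 and -0.18 to 0.34 for Obox5. The cause was not tested. The lowest member count was 618, for Tcl1b5 in young 1, apart from Obox3, for which depth allowed no comparison.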
